A study of Homo sapiens with 4 samples.

Results

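The EGF receptor family and its ligands were followed through 10 genes, the receptors EGFR, ERBB2 and ERBB3 and the ligands AREG, EREG, HBEGF, TGFA, BTC, EGF and NRG1. Members were taken by name, as every probe outside the array's controls that carries 1 of these gene symbols, and the rule uses the symbol and no measured value, although the 10 genes were picked with earlier results of these data known. They account for 10 of the 25992 gene names and 18 of the 34127 probes of the array. Microarray hybridization was carried out on human proximal tubular cells (HPTCs) to study inflammatory gene expression under the SGLT2 inhibitor empagliflozin (Empa). The 4 arrays used here carry 2 labels. HK-2 is a human proximal tubular line immortalised with papillomavirus genes, and RPTEC/TERT1 is one immortalised with telomerase, so each label stands for 1 immortalised line and not for tissue. Cells of all 4 arrays had spent 24 h without serum and supplements before a 24 h stimulation by IL-1β (10 ng/mL) together with Empa (500 nM). Cell line and the growth medium that goes with it are the only differences the labels give. The 2 arrays of a line are independent experiments, called HK-2 r1, HK-2 r2, RPTEC r1 and RPTEC r2 after the line and the replicate number. No unstimulated or IL-1β-only array was used here, and hence no effect of IL-1β or Empa could be computed. The growth medium held EGF at 5 ng/mL for HK-2 and at 10 ng/mL for RPTEC/TERT1, a difference that cannot be told apart from cell line. Serum and growth supplements were left out during starvation and also during the 24 h stimulation.

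EGF family ligands are made as membrane proteins and are cut loose by metalloproteases such as ADAM17 and ADAM10. They bind EGFR, ERBB3 or ERBB4 from outside, receptors pair with each other or with ERBB2, which binds no ligand of its own, and the pairs signal through RAS, RAF and ERK to growth factor response genes. In the proximal tubule EGFR is the leading member, and its ligands amphiregulin (AREG), HBEGF and TGFA are known from studies of tubular injury and repair.

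The arrays did not fall into pairs by their labels. Across the 22832 probes compared, levels of HK-2 r1 correlated with RPTEC r2 at r = 0.980 and levels of HK-2 r2 with RPTEC r1 at r = 0.976, against 0.870 within the HK-2 label and 0.859 within the RPTEC/TERT1 label. Arrays with the same replicate number, which were scanned on the same date, correlated at 0.867 and 0.880. Probes are not independent replicates, and these coefficients describe the arrays without a test. Every value is given by the label of its array, and the cause of this grouping was not tested. A level is the log2 of the processed spot signal over the 75th percentile of its array, with a floor at -5.37, and levels of different probes are not comparable. Between 59.2% and 64.9% of spots were well above background, between 56 and 217 spots per array were saturated, and no member probe was among them.

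Proximal tubule markers were detected in part. Of 15 probes for 10 such genes, 4 were well above background on all arrays and 6 on none, with HNF4A, CUBN and SLC22A6 among the genes seen on no array. GGT1, SLC5A2 and LRP2 were seen on every array. The aminopeptidase ANPEP read 0.49 on HK-2 r1 and 0.47 on RPTEC r2 and was at the floor on the other 2 arrays. The summed signal of the epithelial marker probes, in units of the 75th percentile, was 108 on HK-2 r1, 49.0 on HK-2 r2, 46.5 on RPTEC r1 and 123 on RPTEC r2, with CDH1 at the floor on HK-2 r2 and RPTEC r1. For 6 probes of thick limb, distal tubule and collecting duct, in the same sequence, it was 0.924, 0.267, 0.267 and 1.20, so that these markers split the arrays as the epithelial ones did. The split was carried by SLC12A1 (A_33_P3282454), which read -0.51 on HK-2 r1 and -0.10 on RPTEC r2 and was at the floor on the others, while 4 of the 6 probes were seen on no array. The summed signal of leukocyte markers ran the opposite way at 1.08, 1.55, 2.08 and 0.983, with 3 of 7 probes, among them CD14 and CD68, seen on every array and 3 on none. Not all leukocyte probes followed the sum. In replicate 1, HK-2 was higher by over 1 on the log2 scale for 1 of 4 tested (20.1% of all probes) and lower for 2 (17.2%). The HK-2 arrays differed by that much for 0 of the 4 (35.2%). Summed signals of fibroblast markers were 0.0768 to 0.100 with 2 of 3 probes (COL3A1 and PDGFRB) seen on no array and COL1A1 on 3, and those of endothelial markers 0.245 to 0.446 with 4 of 6 probes seen on no array and CDH5 on all. Fewer cells of a type and less RNA per cell cannot be told apart in such bulk samples, and the part of the markers in the results that follow was not tested.

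The sequences shown are those of the 2 ligands that differed most between arrays and of probes in coding regions. AREG and EREG lie next to each other on chromosome 4, at 74445136 to 74455005 and 74365145 to 74388749 of GRCh38.p14 in the RefSeq table, between EPGN and BTC. The 120 bases before each start site, on the forward strand, read as follows, with a cAMP response element (TGACGTCA) and a TATA box (TATAAA) in capitals.
AREG, chr4:74445016-74445135: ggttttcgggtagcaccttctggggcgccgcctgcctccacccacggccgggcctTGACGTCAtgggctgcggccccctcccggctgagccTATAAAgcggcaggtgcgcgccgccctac
EREG, chr4:74365025-74365144: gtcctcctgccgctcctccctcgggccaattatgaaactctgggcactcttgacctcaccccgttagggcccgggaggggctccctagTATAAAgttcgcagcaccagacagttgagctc
The cAMP response element of AREG began 65 bases before the start and its TATA box 29 bases before it, and the TATA box of EREG began 32 bases before its start. Searched on both strands over 250 bases before the start, TGACGTCA was present in 1.65% of 35116 promoters and TATAAA in 10.7%. Of 8 member genes in the promoter table, AREG alone held the first motif and AREG, EREG and EGFR held the second. An AP-1 motif (TGANTCA) was in the same window of EGF, EGFR and ERBB2 and in 6.57% of all promoters. ERBB3 and NRG1 were not matched in that table. These are matches of letters and not measured binding sites.

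A few probes of members lie in coding sequence, at the positions of GRCh37 that the files give. The AREG probe covers the end of the reading frame, the TGFA probe the membrane-spanning stretch of the precursor, and the EGFR and ERBB3 probes parts of the receptors outside the cell.
AREG A_33_P3419190, chr4:75318293-75318352, forward strand: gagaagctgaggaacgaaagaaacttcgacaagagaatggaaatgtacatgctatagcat
TGFA A_33_P3408203, chr2:70683472-70683531, reverse strand: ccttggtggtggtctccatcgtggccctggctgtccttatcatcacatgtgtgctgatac
EGFR A_33_P3351955, chr7:55231446-55231505, forward strand: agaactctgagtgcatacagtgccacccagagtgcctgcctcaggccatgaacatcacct
ERBB3 A_33_P3280471, chr12:56482380-56482439, forward strand: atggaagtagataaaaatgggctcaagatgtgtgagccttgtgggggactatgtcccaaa
The last pair was well above background on no array, although other probes of the same genes were, and is shown because a reader relying on these probes alone would not see the receptors.

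EGFR, the receptor for EGF, TGFA and AREG, was measured best by probe A_23_P215790 near the end of the full-length transcript (NM_005228), which is printed on the array in 10 spots. Its level was -1.18 on HK-2 r1, 0.23 on HK-2 r2, -0.19 on RPTEC r1 and -1.31 on RPTEC r2. The arrays of each label thus lay apart and the labels overlapped, with a brighter over dimmer ratio of 2.66 within HK-2 (1.32 under normexp background correction and 1.65 in the log2 values the authors deposited) and 2.18 within RPTEC/TERT1. The SD over spots of 1 array was 0.065 to 0.16 (7 to 10 spots used), and no spot of the brighter arrays fell among those of the dimmer ones. HK-2 minus RPTEC/TERT1 was 0.27 (SE 0.75, n = 2 arrays per label, limma adjusted p = 1).

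A second EGFR probe ran the other way. A_33_P3351944 targets NM_201283, a shorter transcript that codes for a receptor part without the kinase, at chr7:55224558-55224617 (GRCh37). Its level was -2.52 on HK-2 r1, -4.06 on HK-2 r2, -4.39 on RPTEC r1 and -2.30 on RPTEC r2. It was higher on the 2 arrays where the full-length probe was lower, and its signals were 23.3 to 87.0. The remaining probe, A_33_P3351955 (NM_201282), was not well above background on any array.

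ERBB2, the partner receptor without a ligand, was read by A_23_P89249 in 10 spots. Its level was 1.25 on HK-2 r1, -0.12 on HK-2 r2, -0.02 on RPTEC r1 and 1.30 on RPTEC r2. HK-2 r1 and RPTEC r2 were the higher arrays, the reverse of full-length EGFR, by 2.58-fold within HK-2 and 2.50-fold within RPTEC/TERT1, and the SD over 10 spots was 0.071 to 0.12. Within HK-2 the ratio was 1.46 under normexp correction, where the order reversed relative to the shift of all probes. HK-2 minus RPTEC/TERT1 was -0.08 (SE 0.78, limma adjusted p = 1). A second probe, A_33_P3292596 (ENST00000584014), was dim and spread less, with levels from -4.63 to -3.94, and it was higher on HK-2 r2 and RPTEC r1. As read, that order within the labels reversed under normexp correction, and within HK-2 in the deposited log2 values. Relative to the shift of all probes it reversed within HK-2 only.

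**Figure D1:**
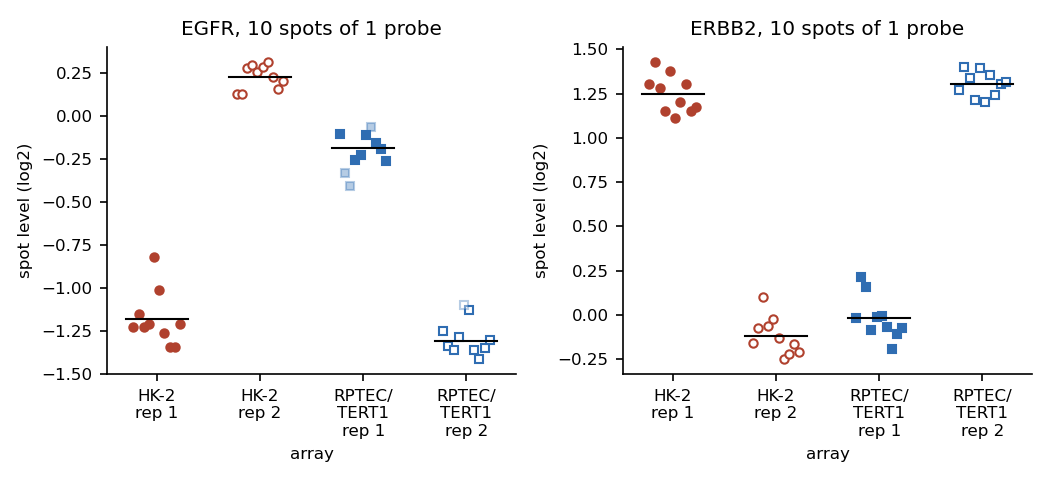
Level of each spot (log2 of the signal over the 75th percentile of the array) of the EGFR probe A_23_P215790 and the ERBB2 probe A_23_P89249 on each array, with the mean of the spots used as a line and spots marked as outliers in pale colour. EGFR was higher on HK-2 r2 and RPTEC r1 and ERBB2 on the other 2 arrays, with no overlap of spots between them.

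ERBB3, a receptor for neuregulins that signals mainly through its partner, was read by A_23_P349416 for the full-length transcript (NM_001982). Its level was -2.29 on HK-2 r1, -5.13 on HK-2 r2, -4.37 on RPTEC r1 and -2.10 on RPTEC r2. The probe was dim everywhere (signals of 21.4 to 100.1) and ran with ERBB2, 7.18-fold apart within HK-2 and 4.83-fold within RPTEC/TERT1 (2.23-fold under normexp correction and 1.98-fold in the deposited log2 values). HK-2 minus RPTEC/TERT1 was -0.47 (SE 1.31, limma adjusted p = 1). A_33_P3211569, for the short transcript NM_001005915 that codes for a secreted part of the receptor, read -2.07 on HK-2 r1, -3.38 on HK-2 r2, -3.96 on RPTEC r1 and -1.59 on RPTEC r2, in the same order of high and low arrays.

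**Figure D2:**
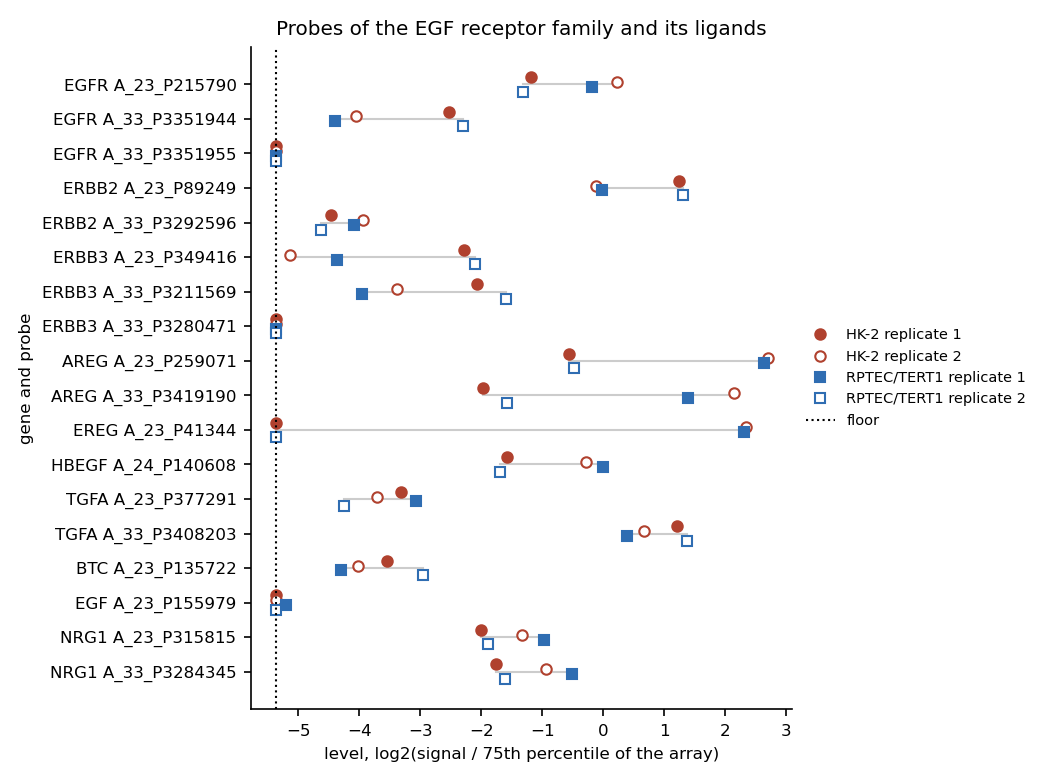
Level of all 18 member probes (log2 of the signal over the 75th percentile of the array) on the 4 arrays, with circles for HK-2, squares for RPTEC/TERT1, filled marks for replicate 1 and the floor of -5.37 dotted. HK-2 r2 lies beside RPTEC r1 and HK-2 r1 beside RPTEC r2 for most probes, with the widest gap for EREG (2.34 and 2.32 against the floor).

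Among the ligands, AREG and EREG spread most. AREG, a ligand of EGFR released by ADAM17, had 2 probes on NM_001657 that ordered the arrays alike. A_23_P259071 read -0.57 on HK-2 r1, 2.70 on HK-2 r2, 2.64 on RPTEC r1 and -0.47 on RPTEC r2, that is signals of 265, 4862, 3040 and 308. The coding probe A_33_P3419190 read -1.97 on HK-2 r1, 2.15 on HK-2 r2, 1.39 on RPTEC r1 and -1.57 on RPTEC r2. Within HK-2 the brighter array exceeded the dimmer 9.64-fold by the first probe and 17.4-fold by the second, and within RPTEC/TERT1 8.65-fold and 7.77-fold. Under normexp correction these ratios were 6.21 and 4.88 within HK-2 and 7.21 and 5.74 within RPTEC/TERT1, in the same direction. The labels overlapped, and HK-2 minus RPTEC/TERT1 was -0.01 (SE 1.59) and 0.18 (SE 1.77), each with a limma adjusted p of 1.

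EREG (epiregulin, a ligand of EGFR and ERBB4) was read by A_23_P41344 on NM_001432. It was bright on 1 array of each label and not well above background on the other. Its level was 2.34 on HK-2 r2 and 2.32 on RPTEC r1 (signals of 3783 and 2432) and at the floor on HK-2 r1 and RPTEC r2. Against the floor, the bright array was at least 210-fold higher within HK-2 and at least 206-fold higher within RPTEC/TERT1. The size depends on the treatment of low signals, as the ratio was 6.32 and 35.0 under normexp correction, 10.1 and 31.8 in the deposited log2 values and 378 and 362 with quantile normalization, each time in the same direction. The fitted difference was 0.01 (SE 3.71, limma adjusted p = 1).

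HBEGF, whose precursor also serves as the diphtheria toxin receptor, was read by A_24_P140608 on NM_001945. Its level was -1.57 on HK-2 r1, -0.28 on HK-2 r2, -0.0013 on RPTEC r1 and -1.70 on RPTEC r2. It followed AREG in order at a smaller distance, 2.44-fold within HK-2 and 3.24-fold within RPTEC/TERT1. As read, the order within HK-2 reversed under normexp correction. Relative to the shift of all probes it was kept, with HK-2 r1 minus r2 at -0.78.

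TGFA, a ligand of EGFR, was read by 2 probes, neither of them with a gap within a label as wide as those of AREG at these settings. As read, A_23_P377291 was 5.94-fold apart within HK-2 under normexp correction, beside 6.21 and 4.88 for the AREG probes. Relative to the shift of all probes, HK-2 r1 minus r2 was then 1.60, beside -3.60 and -3.255 for AREG. The coding probe A_33_P3408203 read 1.21 on HK-2 r1, 0.67 on HK-2 r2, 0.39 on RPTEC r1 and 1.37 on RPTEC r2, an order that reversed within HK-2 under normexp correction. The probe further along the same transcript (NM_003236), A_23_P377291, was dim at -3.31 on HK-2 r1, -3.71 on HK-2 r2, -3.06 on RPTEC r1 and -4.25 on RPTEC r2, where it was not well above background. The 2 probes did not order the RPTEC/TERT1 arrays alike, with the coding probe higher on replicate 2 and the other on replicate 1.

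BTC (betacellulin, a ligand of EGFR and ERBB4) was dim on every array. Its level by A_23_P135722 was -3.55 on HK-2 r1, -4.03 on HK-2 r2, -4.30 on RPTEC r1 and -2.95 on RPTEC r2. EGF itself, by A_23_P155979, was not well above background on any array, with signals of 2.81 to 13.2. The array reads RNA and not the EGF protein that had been in the medium.

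NRG1 (neuregulin, a ligand of ERBB3 and ERBB4) had 2 probes on NM_004495 that ordered the arrays alike. A_23_P315815 read -2.0 on HK-2 r1, -1.34 on HK-2 r2, -0.97 on RPTEC r1 and -1.89 on RPTEC r2. A_33_P3284345 read -1.76 on HK-2 r1, -0.93 on HK-2 r2, -0.51 on RPTEC r1 and -1.61 on RPTEC r2. Both were higher on HK-2 r2 and RPTEC r1, by 1.59 and 1.77-fold within HK-2 and 1.89 and 2.14-fold within RPTEC/TERT1. As read, the order of both probes within HK-2 reversed under normexp correction and in the deposited log2 values. Relative to the shift of all probes that order was kept. HK-2 r1 minus r2 was then -0.15 and -0.46 under normexp correction and -0.35 and -0.63 in the deposited values.

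No member probe was called between the labelled cell lines. Of 18 member probes, 13 were well above background on all arrays and 3 on none, and 15 entered the limma fit over 20806 probes. None of the 15 had an adjusted p under 0.05, and none of the 20806 did (0% called). At an unadjusted p under 0.05 there were 0 member probes and 26 of all probes. With 2 arrays per label an exact permutation test of 1 value cannot go below p = 0.333. Arrays of a label were also less alike (r = 0.870 and 0.859) than the arrays that paired across labels (0.980 and 0.976). With cell line as the only term, that spread entered the error of the fit. The lack of calls thus does not show that the 2 lines are alike in these genes. The median of HK-2 minus RPTEC/TERT1 was 0.01 over the 15 member probes and 0.02 over all probes tested. Levels of the labels failed to overlap for 0 of the 15 member probes and for 6.86% of all probes.

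Within each replicate number members differed in both directions. In replicate 1, HK-2 was higher by over 1 on the log2 scale for 4 of 15 member probes (20.1% of all probes) and lower for 6 (17.2%). In replicate 2, HK-2 was higher by that much for 5 of 15 (16.6%) and lower for 5 (18.2%). AREG by A_23_P259071 was lower in HK-2 by this measure in replicate 1 (-3.21) and higher in replicate 2 (3.18), EGFR by A_23_P215790 went from -0.99 to 1.54 and ERBB2 by A_23_P89249 from 1.27 to -1.42. For all 15 probes the sign differed between replicate 1 and replicate 2, each being 1 array against 1 array without a test. Under normexp correction this held for 13 of 15, with both NRG1 probes above 0 in both numbers, and in the deposited log2 values for 14, with NRG1 by A_23_P315815 the exception. EGFR by A_23_P215790 was then at -0.06 in replicate 1 under normexp correction. The share of all probes with opposite signs was not computed. Over all 20806 probes tested, deviations of same-numbered arrays from the label means correlated at -0.795. The opposite signs are thus not read as particular to the members.

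**Figure D3:**
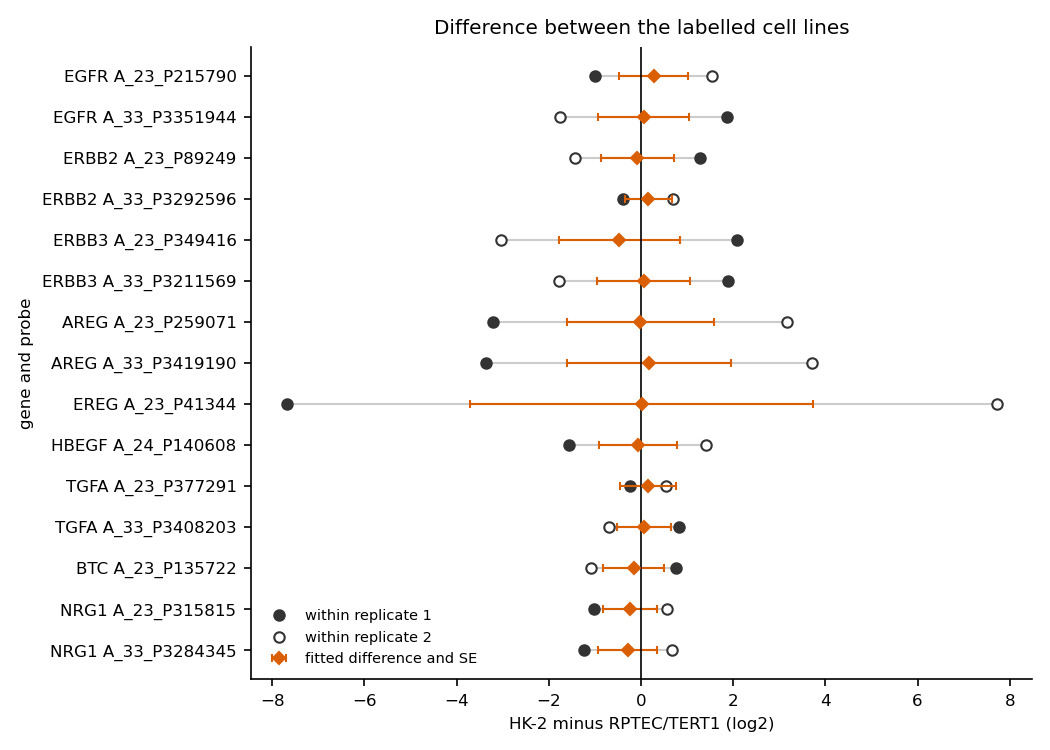
HK-2 minus RPTEC/TERT1 (log2) for the 15 member probes tested, within replicate 1 (filled), within replicate 2 (open) and as fitted over both (diamonds, bars are the SE). The values within replicates lie on opposite sides of 0 for each probe at these settings (13 of 15 under normexp correction and 14 in the deposited log2 values), and the fitted differences run from -0.47 to 0.27. The share of all probes with opposite signs was not computed.

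The arrays labelled HK-2 differed by over 1 on the log2 scale for 9 of 15 member probes (35.2% of all probes), and those labelled RPTEC/TERT1 for 12 of 15 (41.9%). Within RPTEC/TERT1 the count was 7 under normexp correction and 6 in the deposited log2 values, where 5255 and 4897 of all 20806 probes differed by that much. Within HK-2 it was 9 under each, where 12827 and 10312 of all probes did. The median absolute difference over the member probes was 1.31 between the HK-2 arrays and 1.35 between the RPTEC/TERT1 arrays, against 0.69 and 0.83 over all probes. Between HK-2 r1 and RPTEC r2 it was 0.16 for members and 0.23 for all probes, and between HK-2 r2 and RPTEC r1 it was 0.33 and 0.32. These medians are descriptions without a test. Within HK-2 and RPTEC/TERT1 they were 1.56 and 1.60 for the list for release of ligands and 1.68 and 1.95 for growth factor response genes. For other receptors and ligands (2 probes tested) they were 3.54 and 3.93. Adaptors and signalling genes had 0.36 and 0.35, and feedback inhibitors 0.70 and 0.93. Wide medians were thus not particular to the members.

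**Figure D4:**
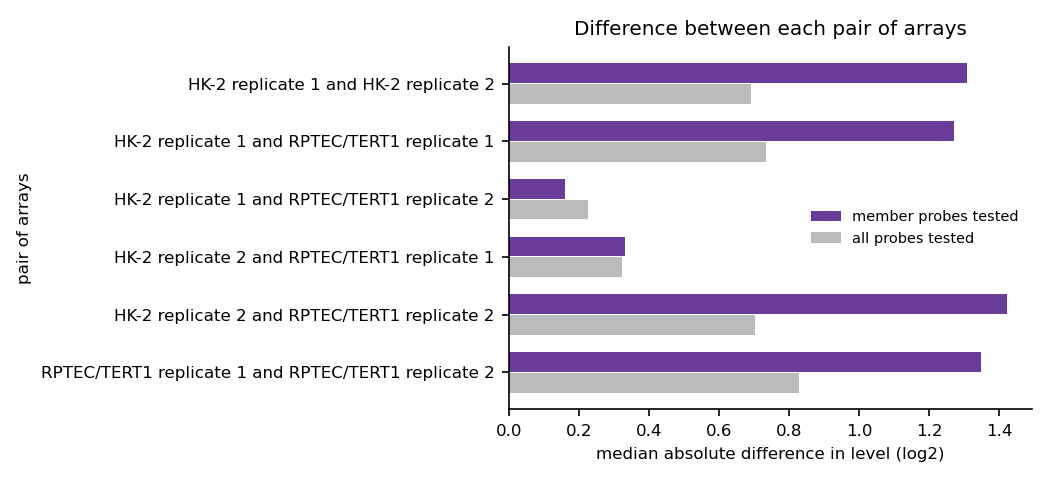
Median absolute difference in level (log2) between each pair of arrays, for the 15 member probes tested and for all 20806 probes. Bars of members are longest between arrays of the same label or replicate number (1.27 to 1.42) and shortest between HK-2 r1 and RPTEC r2 (0.16).

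Other receptors and ligands of the family were read by 8 probes for 5 genes, of which 0 were well above background on all arrays and 4 on none, with 0 of 2 tested called. ERBB4, the remaining receptor, was at -0.50 on HK-2 r1 and -0.39 on RPTEC r2 by A_32_P183765 and at the floor on the other arrays. The bright array was at least 29.2-fold higher within HK-2 and at least 31.7-fold higher within RPTEC/TERT1, with the bright and dim arrays the reverse of EREG. The ratio was 11.1 and 6.80 under normexp correction, 9.32 and 6.10 in the deposited log2 values and 48.1 and 35.4 with quantile normalization, in the same direction. The other ERBB4 probe (A_33_P3211558) and EPGN, a ligand gene beside EREG, were at the floor on every array.

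The list for release of ligands held 12 probes for 8 genes, 11 of them tested and 0 called. ADAM10 by A_23_P48886 read 0.43 on HK-2 r1, -1.33 on HK-2 r2, -1.68 on RPTEC r1 and 0.48 on RPTEC r2, and its other probe A_33_P3243857 ordered the labels' arrays alike (0.81, -0.53, -0.70 and 0.90 in the same sequence). ADAM17, the main protease for AREG, HBEGF and TGFA, was flat by comparison at 0.03, 0.35, 0.68 and -0.03. RHBDF2, an iRhom protein that brings ADAM17 to the cell surface, was at 3.94, 1.61, 1.35 and 3.76, a ratio of 5.03 within HK-2 (2.18 under normexp correction and 3.19 in the deposited values) and 5.31 within RPTEC/TERT1. ADAM10 and RHBDF2 were thus higher where AREG and EREG were lower at these settings. Under normexp correction HK-2 r1 minus r2 was 1.17 and 0.65 for the ADAM10 probes and 1.13 for RHBDF2. The median of all probes was then 0.97, so relative to that shift ADAM10 by A_33_P3243857 reversed within HK-2. In the deposited values the same differences were 1.30, 0.95 and 1.67, above the median of 0.71. The remaining genes of the list lay between the floor and 4.76. By the levels given here, the HK-2 arrays differed by over 1 for 7 of 11 probes of the list (35.2% of all probes). The RPTEC/TERT1 arrays did so for 8 (41.9%). The list was not counted under normexp correction or in the deposited values.

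Adaptors and kinases downstream of the receptors lay closer on the arrays of a label than all probes did by the median, with exceptions. Of 20 probes for 15 genes, 18 were well above background on all arrays and were tested, and 0 were called. By the levels given here, the HK-2 arrays differed by over 1 for 3 (35.2% of all probes). The RPTEC/TERT1 arrays did so for 4 (41.9%). The list was not counted under normexp correction or in the deposited values. HRAS and MAPK3 were higher on HK-2 r1 and RPTEC r2, and PLCG1 on HK-2 r2 and RPTEC r1, each by over 1 within both labels at these settings. Under normexp correction HK-2 r1 minus r2 was 0.95 for HRAS and 0.99 for PLCG1, near the median of all probes (0.97). As read, PLCG1 was thus reversed within HK-2, also in the deposited log2 values (0.36, where the median was 0.71). MAPK3 kept its order at 2.16 and 1.62. The median absolute difference was 0.36 within HK-2 and 0.35 within RPTEC/TERT1, beside 0.69 and 0.83 over all probes. Under normexp correction r1 minus r2 within HK-2 ran from -1.13 (MAP2K1) to 2.50 (SHC1 A_24_P68585), where the median of all probes was 0.97. Within RPTEC/TERT1 it then ran from -1.27 (HRAS) to 1.07 (PLCG1).

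Feedback inhibitors and genes of receptor turnover had 18 probes for 15 genes, with 16 tested and 0 called. ERRFI1, which binds and blocks the EGFR kinase, read 1.37 on HK-2 r1, 3.64 on RPTEC r1 and 1.59 on RPTEC r2, and its only spot on HK-2 r2 was marked as an outlier, so it was not tested. LRIG1, which promotes loss of the receptors, was at -0.65, -1.69, -1.17 and -0.97 on HK-2 r1, HK-2 r2, RPTEC r1 and RPTEC r2. SPRY2, a brake on RAS signalling, was at -0.14, 0.21, 0.66 and -0.56 in the same sequence.

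SPRY4, of the same family, had 2 probes that were higher on HK-2 r1 and RPTEC r2, with A_24_P269062 at -1.93, -3.86, -3.27 and -2.02 and A_33_P3338423 at -2.47, -3.59, -4.19 and -2.96. The ERK phosphatases did not move as 1 group. DUSP4 was at 0.03, -1.34, -1.13 and -0.04. DUSP5 was at 0.96, 1.90, 1.73 and 0.90. DUSP6 was at 1.74, 1.08, 1.52 and 1.75. DUSP5 was thus higher on the arrays with high AREG, and DUSP4 was lower there. DUSP6 was lower on HK-2 r2 than on HK-2 r1, an order reversed under normexp correction. Within RPTEC/TERT1 it was only 1.18-fold apart.

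Growth factor response genes had 19 probes for 14 genes, with 17 tested and 0 called, and several lay far apart between arrays of a label. FOSL1, a partner of JUN, read -2.23 on HK-2 r1, -0.09 on HK-2 r2, 0.32 on RPTEC r1 and -3.05 on RPTEC r2. Its ratio was 4.40 within HK-2, though 1.17 under normexp correction and 1.65 in the deposited values, and 10.4 within RPTEC/TERT1 (5.26 and 5.04). MYC by A_23_P215956 read 1.19, 3.41, 3.48 and 0.99 in that sequence, a ratio of 4.65 within HK-2 and 5.64 within RPTEC/TERT1. These ran in the order of AREG and EREG, as did the ETS factors ETV4 and ETV5. As read, the order of ETV4 and ETV5 within HK-2 reversed under normexp correction and in the deposited log2 values. The median of HK-2 r1 minus r2 over all probes was then 0.97 and 0.71. ETV5 lay below it (0.73 and 0.061) and ETV4 above it (2.175 and 1.33).

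ETV4 was at -2.78 on HK-2 r2 and -2.77 on RPTEC r1 and not well above background on the others, and ETV5 was at -3.28, -1.19, -1.02 and -3.46. PHLDA1 by A_24_P915692 ran the other way at 2.49, -0.96, -1.49 and 2.26, a ratio of 10.9 within HK-2 (5.23 under normexp correction) and 13.4 within RPTEC/TERT1. EGR1, an immediate early gene, was at -2.02, -1.18, -1.20 and -1.23 and was low on HK-2 r1 only. As read, HK-2 r1 was instead the higher HK-2 array under normexp correction (by 0.65) and in the deposited values (by 0.12). Both values lay below the median of all probes there (0.97 and 0.71). Second probes of MYC (A_33_P3245163) and PHLDA1 (A_33_P3294302) were at the floor on every array. By the levels given here, the HK-2 arrays differed by over 1 for 12 of 17 probes and the RPTEC/TERT1 arrays for 14. Among all probes 35.2% and 41.9% did so. Under normexp correction and in the deposited values, 12827 and 10312 of all 20806 probes differed by that much within HK-2. Within RPTEC/TERT1, 5255 and 4897 did. The list was not counted under those settings, and whether its share exceeds that of all probes there was not tested.

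**Figure D5:**
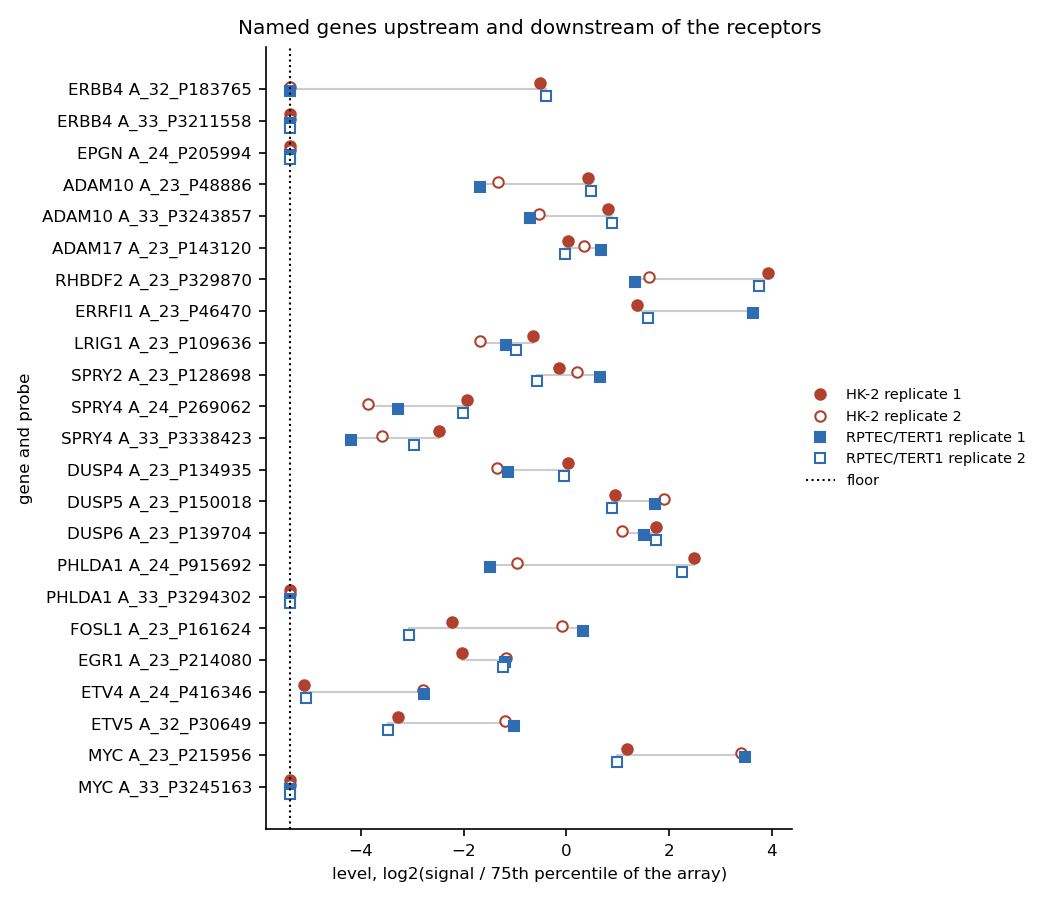
Level (log2 of the signal over the 75th percentile of the array) of the named genes for other receptors and ligands, ligand release, feedback and response on the 4 arrays, with marks as for the member probes and the floor of -5.37 dotted. RHBDF2, PHLDA1 and ERBB4 are high on HK-2 r1 and RPTEC r2, and MYC, FOSL1, ETV4 and ETV5 on the other 2 arrays. As read, ETV4 and ETV5 are so within HK-2 only before normexp correction and not in the deposited log2 values.

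Detection of the members depended on the mark used. By the flag of the Agilent Feature Extraction software, 13 of 18 member probes were well above background on all arrays. By the 95th percentile of the negative controls of the array 15 were, and above the brightest of its 153 negative control spots 4 were. That last mark rests on 1 spot per array, at 171 on HK-2 r1 and at 50.7, 49.3 and 12.1 on HK-2 r2, RPTEC r1 and RPTEC r2.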

How the data were processed

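The authors deposited spot intensity values on a linear scale from Agilent Feature Extraction 9.5.3.1 for 4 1-colour arrays, with flags per spot, and per the file headers the processed signal is background-subtracted. Log2 values that the authors deposited in a series table were read too (medians of 8.33, 7.14, 6.75 and 6.72 for HK-2 r1, HK-2 r2, RPTEC r1 and RPTEC r2). They run in the same direction and rank as spot signal minus local background. Their scale factor and centring are unknown, and they were used only as an alternative. The number of arrays limits the precision.

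Each array's 75th percentile (393, 748, 488 and 429 in the same order) scaled its signals, which were floored at 0.0242 of it (-5.37 as a level) before log2. This floor is the largest of the 4 arrays' lowest scaled signals well above background. Control and outlier spots (1.24% to 1.85%) were left out, and spots of a probe were averaged. Probes well above background on at least 2 arrays and with a value on all 4 (20806) were fitted with limma 3.58.1 in R 4.3.3, cell line as the only term and Benjamini-Hochberg adjustment at 0.05. The step was tested on simulated data with a smaller spread between arrays of a label than these arrays show, so that test does not cover data like these. Probes of 1 gene were kept apart. Where only 1 array of a label measured a probe, the fold is a lower bound against the floor or, where higher, the level of the dim array.

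Replicate numbers are shared by the labels and coincide with scan dates. Deviations of same-numbered arrays from the label means correlated at -0.795, which in a table whose arrays pair across labels is below 0 in any case, so the numbers were not taken as pairs. Each array was on its own slide. Named genes were all member probes, the genes given by name in the other pathway lists whatever their value, and any list probe with an adjusted p under 0.05. Members, lists and named genes were chosen with earlier results of these data known. The transcripts of 17 of 18 member probes were in the RefSeq gene table (GRCh38.p14) under the same symbol. Methods and labels name different RNA kits. Alternatives were normexp background correction with an offset of 50, quantile normalization, scaling to the median, the deposited log2 values, other filters, outlier spots kept, a replicate block and each array left out.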

Additional observations from a re-analysis of the deposited data

How the results depend on the processing

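Every setting called 0 member probes and 0 probes in all with limma, with 5 to 298 probes at an unadjusted p under 0.05, and 0 member probes among them. With the replicate number as a block, 0 probes were called (5 at an unadjusted p under 0.05). With arrays paired against their numbers as a block, an alternative added after the data had been seen, 0 were called (192 unadjusted). Fits with slide as a block could not be made, and 1 value per gene was not applied to single probes. Counts of probes differing between arrays of a label under other settings were also added after the data had been seen.

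Normexp correction and the deposited log2 values moved the median of all probes, for HK-2 minus RPTEC/TERT1 from 0.02 to 0.37 and 0.20, and for r1 minus r2 within HK-2 from 0.05 to 0.97 and 0.71. Relative to that shift, the order of the HK-2 arrays changed for 3 member probes under normexp (ERBB2 A_23_P89249 and A_33_P3292596, TGFA A_33_P3408203) and for 2 in the deposited values (the latter pair), and within RPTEC/TERT1 for 0. As read, HK-2 minus RPTEC/TERT1 reversed under normexp for ERBB3 A_23_P349416 (0.44), AREG A_23_P259071 (0.21), HBEGF (0.45), TGFA A_33_P3408203 (-0.24), BTC (0.76), and NRG1 A_23_P315815 (0.44) and A_33_P3284345 (0.36). In the deposited values these were, in the same order, 0.094, 0.081, 0.18, -0.017, 0.36, 0.13 and 0.093. With quantile normalization only AREG A_23_P259071 reversed (0.0097). Among 15 member probes, the number differing by over 1 between the RPTEC/TERT1 arrays was 7 under normexp and 6 in the deposited values, and detection on all arrays fell to 4 of 18 above the brightest negative control.

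Leaving out 1 array, whichever it was, left 0 calls, and the difference of each member probe took either sign. It ran from -0.43 to 0.98 for EGFR A_23_P215790, from -0.99 to 1.10 for A_33_P3351944, from -0.76 to 0.61 for ERBB2 A_23_P89249, from -0.12 to 0.43 for A_33_P3292596, from -1.90 to 0.95 for ERBB3 A_23_P349416 and from -1.13 to 1.24 for A_33_P3211569. For AREG it ran from -1.65 to 1.62 by A_23_P259071 and from -1.88 to 2.24 by A_33_P3419190, for EREG from -3.84 to 3.87 and for HBEGF from -0.92 to 0.77. For TGFA it ran from -0.45 to 0.74 by A_23_P377291 and from -0.43 to 0.55 by A_33_P3408203, for BTC from -0.84 to 0.51, and for NRG1 from -0.69 to 0.23 by A_23_P315815 and from -0.83 to 0.26 by A_33_P3284345. The lone array of a label was assumed to vary like the other label.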
